A study of Mus musculus with 8 samples.

Results

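The genes described here encode interferon regulatory factors (IRFs), the transcription factors through which cells switch on interferons and answer them. The 8 members *Irf1*, *Irf2*, *Irf3*, *Irf4*, *Irf5*, *Irf7*, *Irf8* and *Irf9* were taken by gene symbol from the 55536 rows of the count table, and all 8 were among the 15998 genes that passed the filter on low counts. Each IRF protein carries a DNA-binding domain that reads repeats of GAAA, the core of the interferon-stimulated response element (ISRE). IRF3, IRF5 and IRF7 wait in the cytoplasm until a kinase below a Toll-like receptor (TLR) or an RNA or DNA sensor phosphorylates them, after which they drive interferon genes. IRF9 joins STAT2 in the ISGF3 complex that carries the type I interferon signal to the nucleus, IRF1 and IRF2 compete for shared sites as activator and antagonist, and IRF4 and IRF8 act mainly in lymphoid and myeloid cells.

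The RNA came from 8 tumors of HCA-1, a mouse hepatocellular carcinoma (HCC) cell line, grown orthotopically in the livers of male C3H mice that were 6 to 8 weeks old at implantation per the labels, while the study's methods give a younger range. On day 17, 4 mice received PFSUV-IMQ, which is imiquimod (IMQ), a TLR7 agonist, loaded into phospholipid-free small unilamellar vesicles, as a single intravenous dose. The 4 control mice received saline, and all tumors were taken 3 h later. The control replicates carry the numbers 1, 3, 4 and 5 and the PFSUV-IMQ replicates the numbers 1, 2, 3 and 4. No group with empty vesicles or free IMQ was analysed here, so the drug and its carrier cannot be told apart. All tumors derive from 1 cell line and are whole tissue, in which a change in the number of cells of a type and a change in RNA per cell cannot be told apart.

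The libraries held 16883911 to 27687756 counts in control tumors and 17008151 to 18527613 in PFSUV-IMQ tumors, so that 3 counts correspond to 0.105 to 0.210 normalized CPM (read counts adjusted for library size). The tissue markers *Alb*, *Krt8* and *Krt18* were abundant in every tumor, while the oncofetal liver genes *Afp* and *Gpc3* reached at most 6.08 and 1.99 CPM. PFSUV-IMQ replicate 2 stood apart. It had the lowest library scaling factor of the 8 (0.843, against 0.981 to 1.09 in the others) and the highest share of mitochondrial counts (6.65%, against 1.37% to 5.22%). Values without it are given for each member, and for other genes where leaving it out changed a call or moved the fold change by over 1.5 times.

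The promoters of 4 members are shown because these members differ both in their response and in the motifs near their start sites. The sequences are RefSeq windows on GRCm38.p6 from 250 bases before to 50 bases after the first listed start site, written 5′ to 3′ along the gene. They cover chr11:53769764-53770063 (plus strand) for *Irf1*, chr8:46739495-46739794 (plus) for *Irf2*, chr7:141266375-141266674 (minus) for *Irf7* and chr8:120736108-120736407 (plus) for *Irf8*. Capitals mark matches to the ISRE core (GAAA, any 2 bases, GAAA), the gamma-activated site GAS (TTCNNNGAA, an element of interferon-gamma responsive genes) and the kappaB motif that NF-kappaB reads.
Irf1: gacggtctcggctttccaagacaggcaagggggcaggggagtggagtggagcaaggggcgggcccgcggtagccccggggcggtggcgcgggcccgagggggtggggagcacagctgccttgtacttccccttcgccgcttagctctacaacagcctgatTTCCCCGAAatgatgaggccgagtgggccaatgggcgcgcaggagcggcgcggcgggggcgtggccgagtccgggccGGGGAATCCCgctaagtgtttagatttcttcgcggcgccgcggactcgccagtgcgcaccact
Irf2: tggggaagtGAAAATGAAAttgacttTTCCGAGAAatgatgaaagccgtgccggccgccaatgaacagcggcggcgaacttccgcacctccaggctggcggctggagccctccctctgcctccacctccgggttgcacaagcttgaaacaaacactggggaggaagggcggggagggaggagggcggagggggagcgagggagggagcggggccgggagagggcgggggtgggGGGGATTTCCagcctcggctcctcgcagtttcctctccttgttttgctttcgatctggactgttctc
Irf7: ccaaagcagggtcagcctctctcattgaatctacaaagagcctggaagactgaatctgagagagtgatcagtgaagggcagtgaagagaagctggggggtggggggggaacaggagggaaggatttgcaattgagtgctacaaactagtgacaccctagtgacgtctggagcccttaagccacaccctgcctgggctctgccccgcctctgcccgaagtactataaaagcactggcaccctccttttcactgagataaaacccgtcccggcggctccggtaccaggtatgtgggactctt
Irf8: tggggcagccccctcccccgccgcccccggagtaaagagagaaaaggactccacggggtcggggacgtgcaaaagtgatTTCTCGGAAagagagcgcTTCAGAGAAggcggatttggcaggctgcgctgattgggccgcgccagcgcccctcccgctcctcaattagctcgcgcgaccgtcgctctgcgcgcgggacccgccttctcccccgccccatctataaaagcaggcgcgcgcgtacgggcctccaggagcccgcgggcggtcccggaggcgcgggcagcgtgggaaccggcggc

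The *Irf1* window holds a GAS at -90 to -82 and a kappaB match at -13 to -4 from the start site. The *Irf2* window holds the ISRE core at -241 to -232, a GAS at -224 to -216 and a kappaB match at -17 to -8. Matches to the looser IRF core AANNGAAA at -245 to -238 and -239 to -232 overlap that ISRE core and are not marked separately. The *Irf8* window holds 2 GAS matches, at -171 to -163 and -153 to -145. On either strand, none of the 4 motifs was found in the windows listed for *Irf3*, *Irf4*, *Irf5*, *Irf7* and *Irf9*, nor in the second windows listed for *Irf1* and *Irf8*. Among 32851 promoter windows of the same length, 3.443% hold the ISRE core, 8.298% a GAS, 8.459% a kappaB match and 23.917% the IRF core. A match describes letters in this window only, and *Irf7*, the member that changed most, has none of them there.

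**Figure D1:**
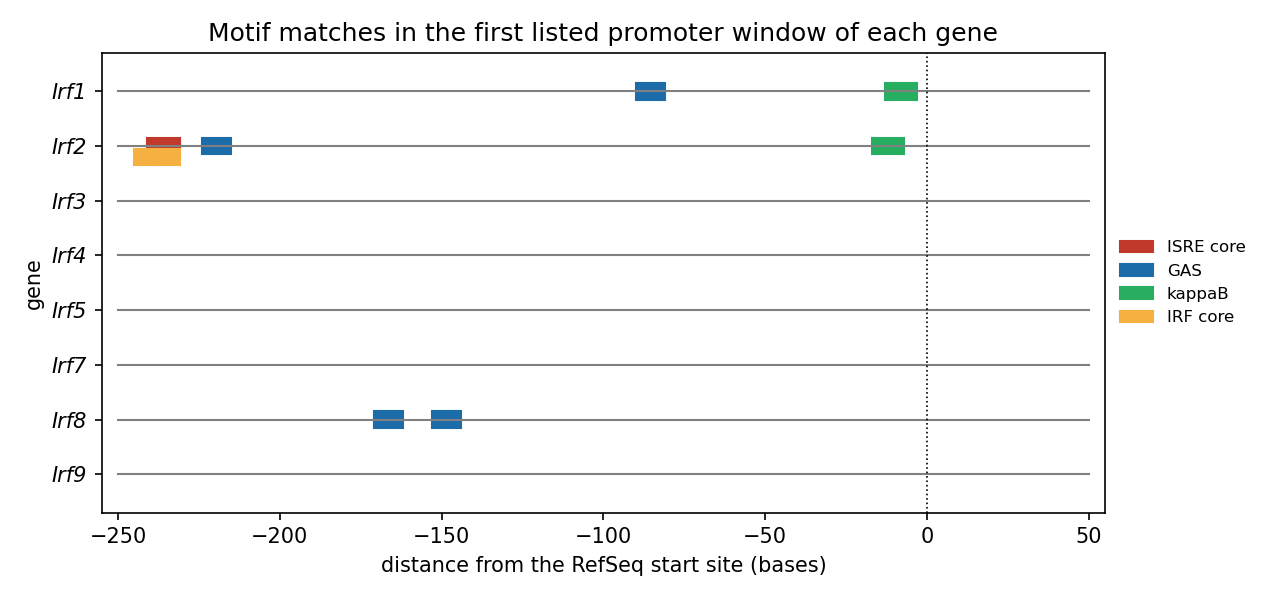
Positions of motif matches in the first listed promoter window of each gene, in bases from the RefSeq start site (dotted line at 0), with 1 line per gene. Matches lie in *Irf1*, *Irf2* and *Irf8*, and the other 5 windows are empty.

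Of the 8 members, 3 rose after PFSUV-IMQ (*Irf7*, *Irf2* and *Irf9*), none fell, and 5 did not pass the test. The test was edgeR's quasi-likelihood test on all genes, and a gene was called when its adjusted p was below 0.05 and its level differed by more than 1 on the log2 scale. By these criteria 2.26% of all tested genes rose and 0.2% fell. At an unadjusted p under 0.05, 4 members were higher and 0 lower, against 8.34% and 4.65% of all tested genes, and DESeq2's Wald test under the same limits also called 3 members higher. For 4 members (*Irf1*, *Irf2*, *Irf7* and *Irf9*) all PFSUV-IMQ tumors lay above all control tumors, which held for 6.0% of tested genes, whereas no member lay wholly below, which held for 3.28%. The median log2 fold change of the members was 0.70, and that of all tested genes was -0.03.

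**Figure D2:**
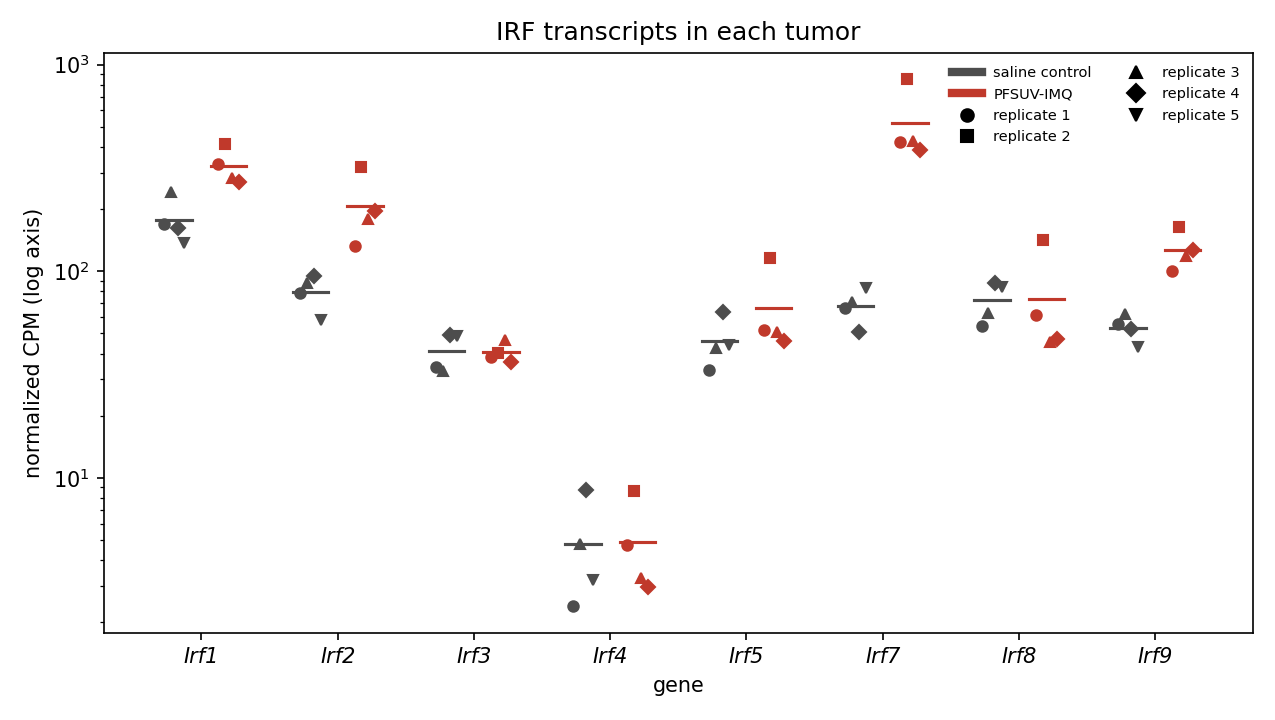
Normalized CPM (log axis) of each gene in each tumor, with saline controls in grey, PFSUV-IMQ in red, a symbol for each replicate number and a bar at the group mean (n = 4). The groups do not overlap for *Irf1*, *Irf2*, *Irf7* and *Irf9*, and PFSUV-IMQ replicate 2 (square) is the highest of its group for every gene but *Irf3*.

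Among the members that phosphorylation activates, *Irf7*, the inducible factor that amplifies type I interferon production, rose most. The *Irf7* gene lies at chr7:141262706-141266481 on the minus strand. Its level was 66.3, 71.2, 50.8 and 82.9 CPM in control replicates 1, 3, 4 and 5. In PFSUV-IMQ replicates 1 to 4 it was 422, 848, 425 and 387 CPM. Every treated tumor was far above every control, and 3 of the 4 treated tumors lay close together with replicate 2 well above them. The mean went from 67.8 ± 13.3 to 520.4 ± 219 CPM (SD, n = 4 each), a 7.68-fold difference (log2 fold change 2.94, SE 0.31, adjusted p = 0.00121). Without PFSUV-IMQ replicate 2 the log2 fold change was 2.58 (adjusted p = 2.2e-04) and the treated mean was 411 ± 21.0 CPM (SD, n = 3).

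*Irf3*, the constitutive counterpart of *Irf7* that acts below TLR3, MAVS and STING, did not pass the test. The gene lies at chr7:44997648-45002848 (plus strand). Control tumors 1, 3, 4 and 5 had 34.6, 32.9, 49.1 and 48.8 CPM, and PFSUV-IMQ tumors 1 to 4 had 38.3, 40.5, 46.6 and 36.4 CPM. All treated values lay inside the range of the controls. The log2 fold change was -0.03 with a 95% interval of -0.44 to 0.38 (adjusted p = 0.970), an interval that lies within a 2-fold change in either direction, the limit of log2 1.0 used for calls. Without PFSUV-IMQ replicate 2 the log2 fold change was -0.05. *Irf3* was the only member for which PFSUV-IMQ replicate 2 was not the highest treated tumor.

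*Irf5*, the member that drives inflammatory cytokine genes below MyD88, stood out in a single treated tumor. The gene lies at chr6:29526625-29541871 (plus strand). Its values were 33.4, 42.8, 63.2 and 44.2 CPM in control replicates 1, 3, 4 and 5. In PFSUV-IMQ replicates 1 to 4 they were 51.9, 116, 50.8 and 46.2 CPM. Replicate 2 was above all other tumors, and the other 3 treated tumors lay within the control range. The log2 fold change of 0.53 (95% interval -0.20 to 1.26, adjusted p = 0.580) went to 0.10 without that tumor. Of the exon bases of *Irf5*, 14.15% are shared with *Tnpo3* on the opposite strand. The strand setting of the counting is not given in the sources used here, so reads in that stretch cannot be assigned with certainty. *Tnpo3* itself was at 86.4 CPM in controls and 81.1 CPM in treated tumors.

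The gene of the DNA-binding subunit of ISGF3, *Irf9* (chr14:55603571-55610030, plus strand), rose. It lay at 55.4, 61.9, 52.6 and 42.8 CPM in control replicates 1, 3, 4 and 5, and at 99.9, 164, 119 and 127 CPM in PFSUV-IMQ replicates 1 to 4. The lowest treated tumor was above the highest control. The mean rose 2.40-fold from 53.2 ± 7.93 to 127 ± 26.8 CPM (SD, n = 4 each), with a log2 fold change of 1.26 (SE 0.19, adjusted p = 0.00870) that was 1.10 without PFSUV-IMQ replicate 2. *Irf9* and its neighbor *Rnf31*, a subunit of the linear ubiquitin ligase, overlap by 123 exon bases on the same strand (2.28% of the exon bases of *Irf9*). *Rnf31* also rose (log2 fold change 1.60, adjusted p = 0.00327), and how reads in the shared bases were assigned was not tested.

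RNA of STAT2, a partner of IRF9 in ISGF3, also rose. *Stat2* went from 102 to 516.6 CPM (log2 fold change 2.34, adjusted p = 4.99e-04). The ratio of *Irf9* to *Stat2* counts was 0.570, 0.521, 0.522 and 0.470 in control replicates 1, 3, 4 and 5, and 0.233, 0.262, 0.234 and 0.253 in PFSUV-IMQ replicates 1 to 4. The groups did not overlap, and the values within each group lay close together. On the log2 scale the ratio fell by 1.08, from -0.94 ± 0.11 to -2.03 ± 0.08 (SD, n = 4 each). A two-sided exact permutation test gave p = 0.0286, the smallest that 4 tumors against 4 allow, and 0.0572 after adjustment over the 4 ratios tested, which misses 0.05. The ratio of *Irf7* to *Irf3* had the same p values, with a log2 difference of 2.89. It was between 1.03 and 2.16 in control tumors and between 9.11 and 20.9 in PFSUV-IMQ tumors.

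**Figure D3:**
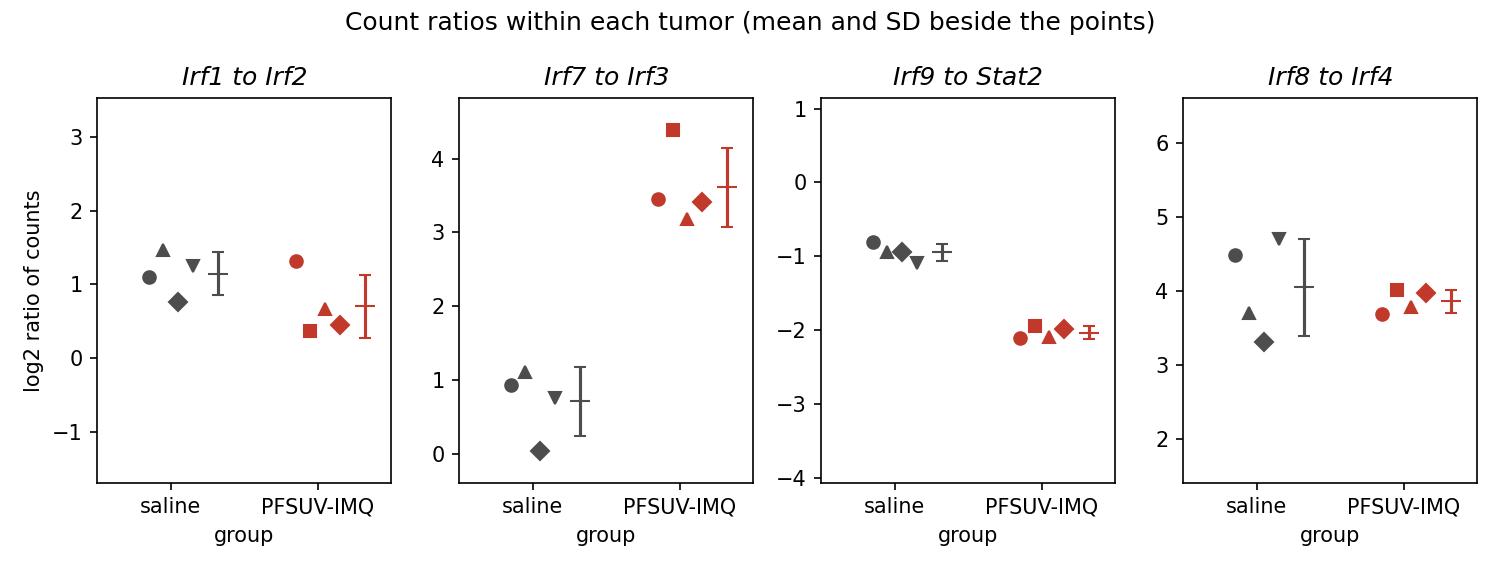
Log2 ratio of counts within each tumor for 4 gene pairs, with the group mean and SD (n = 4) beside the points and the same span on all vertical axes. The *Irf7* to *Irf3* and *Irf9* to *Stat2* ratios do not overlap between saline and PFSUV-IMQ, and the other pairs overlap.

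Of the activator and antagonist pair, the antagonist *Irf2* passed the test and the activator *Irf1* did not. *Irf2* lies at chr8:46739732-46847458 (plus strand). It was at 78.8, 87.5, 94.8 and 57.9 CPM in control replicates 1, 3, 4 and 5, and at 132, 320, 178 and 196 CPM in PFSUV-IMQ replicates 1 to 4. The groups were apart, with replicate 2 highest by a wide margin. The log2 fold change was 1.37 (SE 0.28, adjusted p = 0.0340), and the mean rose from 79.7 ± 16.0 to 206 ± 80.0 CPM (SD, n = 4 each). This call depended on the set of tumors. It was lost in 6 of the 8 fits that left out 1 tumor, all but those without PFSUV-IMQ replicate 1 or 2, with adjusted p between 0.0635 and 0.113 in those 6. In the fit without PFSUV-IMQ replicate 2 the log2 fold change was 1.06 (adjusted p = 0.0403). The antisense transcript *Gm45479* lies in introns of *Irf2* with no shared exon base and had 603 counts in all tumors together.

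*Irf1*, which activates antigen-presentation and guanylate-binding protein genes, lies at chr11:53770014-53778374 (plus strand). Control replicates 1, 3, 4 and 5 had 169, 242, 161 and 137 CPM, and PFSUV-IMQ replicates 1 to 4 had 329.8, 414, 283 and 269 CPM. All treated tumors were above all controls, with a narrow gap between control replicate 3 and PFSUV-IMQ replicate 4. The mean went from 177.5 ± 45.3 to 323.9 ± 65.3 CPM (SD, n = 4 each). The log2 fold change of 0.87 (SE 0.23, 95% interval 0.36 to 1.37) had an adjusted p of 0.0939 in edgeR and 0.0239 in DESeq2's Wald test, and it was under the limit of 1 in both. Without PFSUV-IMQ replicate 2 it was 0.71 (adjusted p = 0.176 in edgeR). The ratio of *Irf1* to *Irf2* counts was 1.70 to 2.77 in control tumors and 1.29 to 2.49 in PFSUV-IMQ tumors, with overlapping groups (log2 difference -0.44, exact permutation p = 0.143).

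Neither lineage factor was called. *Irf8* (chr8:120736358-120756694, plus strand), needed for plasmacytoid and type 1 conventional dendritic cells and for monocyte maturation, had 54.5, 62.7, 87.6 and 84.2 CPM in control replicates 1, 3, 4 and 5. PFSUV-IMQ replicates 1 to 4 had 61.4, 141, 45.6 and 47.0 CPM. Replicate 2 was the highest of all tumors and replicates 3 and 4 the lowest, so treated values lay on both sides of the controls. The log2 fold change was 0.03 (95% interval -0.79 to 0.85, adjusted p = 0.987), and without replicate 2 it was -0.51 (adjusted p = 0.329), which also misses the threshold. *Irf4* (chr13:30749226-30766976, plus strand), which directs plasma cell and T cell programs, was at 2.40, 4.81, 8.76 and 3.20 CPM in control replicates 1, 3, 4 and 5 and 4.75, 8.66, 3.29 and 2.98 CPM in PFSUV-IMQ replicates 1 to 4. The groups overlapped over nearly their whole range. Its interval of -1.03 to 1.09 around a log2 fold change of 0.03 does not leave out a 2-fold change in either direction. Without PFSUV-IMQ replicate 2 the log2 fold change was -0.40 (adjusted p = 0.742). The ratio of *Irf8* to *Irf4* counts did not separate the groups (log2 difference -0.19, exact permutation p = 0.514).

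**Figure D4:**
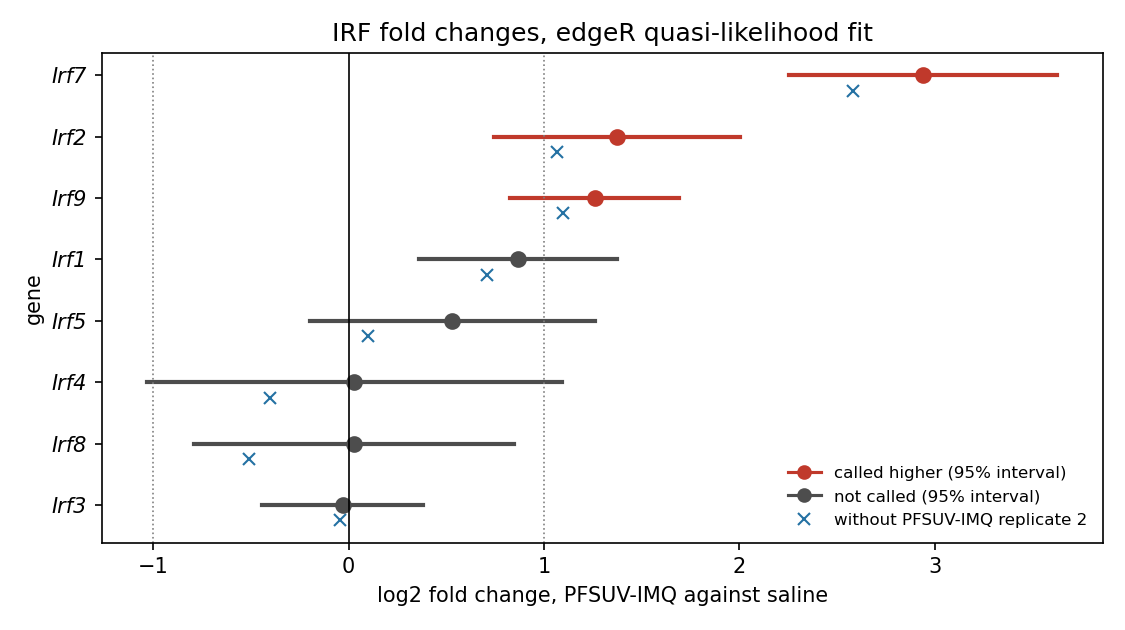
Log2 fold change of each gene, PFSUV-IMQ against saline, with its 95% interval from the edgeR quasi-likelihood fit (n = 4 tumors each), and crosses for the fit without PFSUV-IMQ replicate 2. *Irf7*, *Irf2* and *Irf9* (red) passed both limits, and the crosses lie left of the points, by -0.51 against 0.03 for *Irf8*.

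PFSUV-IMQ replicate 2 was the highest treated tumor for 7 of the 8 members. Its summed levels of several cell markers were also at the top of the treated tumors. Its B cell markers summed to 30.7 CPM (2.40 to 11.0 CPM in controls), its neutrophil markers to 132 CPM (15.5 to 58.2 CPM), its T cell markers to 147 CPM (56.2 to 131 CPM) and its macrophage markers to 1446 CPM (979 to 1402 CPM). Its hepatocyte and liver tumor markers summed to 31095 CPM (6165 to 30733 CPM in controls). Among treated tumors, *Alb*, *Apoa1*, *Ttr* and *Hnf4a* were highest in replicate 2, and *Afp*, *Gpc3*, *Krt8* and *Krt18* lowest. Without it the log2 fold changes of the first 4 were -1.08, -0.60, -0.46 and -0.73, against -0.14, 0.04, 0.19 and 0.35 with all tumors. None of these genes was called in either fit. The type 1 dendritic cell markers of replicate 2, at 197 CPM, summed to the lowest of the treated tumors. Most of that sum was *Cadm1*, at 134 CPM against 234 to 240 CPM in the other treated tumors. Of the rest, *Xcr1*, *Clec9a*, *Wdfy4*, *Flt3* and *Zbtb46* were highest in replicate 2 among treated tumors, and *Itgae* was not. The part of these cell types in the IRF values of this tumor was not tested. Of the 5 plasma cell markers, summed at 428 to 644 CPM in controls and 666 to 843 CPM in treated tumors, *Sdc1* made up most, a gene that epithelial cells also express, and none was called. Of the 3 monocyte markers, *Cx3cr1* fell (log2 fold change -2.81, adjusted p = 0.00243). *Ccr2* had a lower mean without passing the test (56.0 and 23.9 CPM, log2 fold change -1.23, adjusted p = 0.0890), while *Ly6c2* was higher in all treated tumors without passing the test (log2 fold change 1.88, adjusted p = 0.0633). The monocyte sums were 95.7 to 197 CPM in controls and 44.7 to 69.4 CPM in treated tumors. The sums overlapped between groups for plasmacytoid and type 1 dendritic cells, B, T and natural killer cells, macrophages, Kupffer cells, neutrophils, hepatocytes and endothelium. In these lists the only call was the Kupffer cell gene *Vsig4*, which fell (log2 fold change -1.62, adjusted p = 0.0453). Most of the plasmacytoid sum was *Tcf4* (means of 144 CPM in controls and 214 CPM in treated tumors). Most of the type 1 sum was *Cadm1* (205 and 211 CPM). *Siglech* (-1.11), *Itgae* (-1.34, all treated tumors below all controls), *Flt3* (-1.14), *Wdfy4* (-0.98), *Xcr1* (-0.84) and *Zbtb46* (-0.27) had lower means without passing the test. *Ccr9* (0.56), *Pacsin1* (0.08) and *Clec9a* (0.06) had the opposite sign. No marker was at 0 in all tumors, and *Fcer2a*, *Tnfrsf17*, *Klrb1c* and *Ly6g* were at 0 in some.

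Levels were compared between members as CPM per kilobase of exon. The summed level of the 8 members was 122 ± 12.1 CPM per kilobase in control tumors and 317 ± 106 in PFSUV-IMQ tumors (SD, n = 4 each). Leaving out PFSUV-IMQ replicate 2, the treated mean was 264 ± 8.64 (SD, n = 3). The range was 111 to 137 in control tumors and 254 to 476 in treated tumors. In control tumors *Irf1* made up 36.3% ± 6.47 of this sum, *Irf7* 14.9% ± 3.62 and *Irf5* 12.9% ± 3.13, and *Irf4* came last at 0.784% ± 0.43. In PFSUV-IMQ tumors *Irf7* made up 42.7% ± 3.05 and *Irf1* 26.5% ± 3.63. *Irf2* (8.80% in controls and 8.78% in treated tumors) and *Irf9* (8.08% and 7.70%) had similar shares in both groups while their levels rose. The shares of *Irf3* (9.92% and 3.96%) and *Irf8* (8.42% and 3.12%) were lower in treated tumors although their own levels were not called different.

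Within the control group, *Irf1* was separate from the next member and *Irf4* from the one above it. The 6 members in between (*Irf7*, *Irf5*, *Irf3*, *Irf2*, *Irf8*, *Irf9*, from 18.0 down to 9.87 CPM per kilobase) overlapped each with the next. In the PFSUV-IMQ group the order was *Irf7*, *Irf1*, *Irf2*, *Irf9*, *Irf5*, *Irf3*, *Irf8* and *Irf4*. There the ranges were separate only below *Irf1*, below *Irf5* and below *Irf8*. With exon bases of all transcripts counted, *Irf1* was the largest member in all 4 control tumors and *Irf7* in all 4 treated tumors. With the length of the longest transcript instead, *Irf1* stayed largest in the control tumors but was also larger than *Irf7* in 3 of the 4 treated tumors (replicates 1, 3 and 4), at group means of 33.1% for *Irf1* and 33.6% for *Irf7*. Which of them is the more abundant RNA after treatment therefore depends on the length used.

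**Figure D5:**
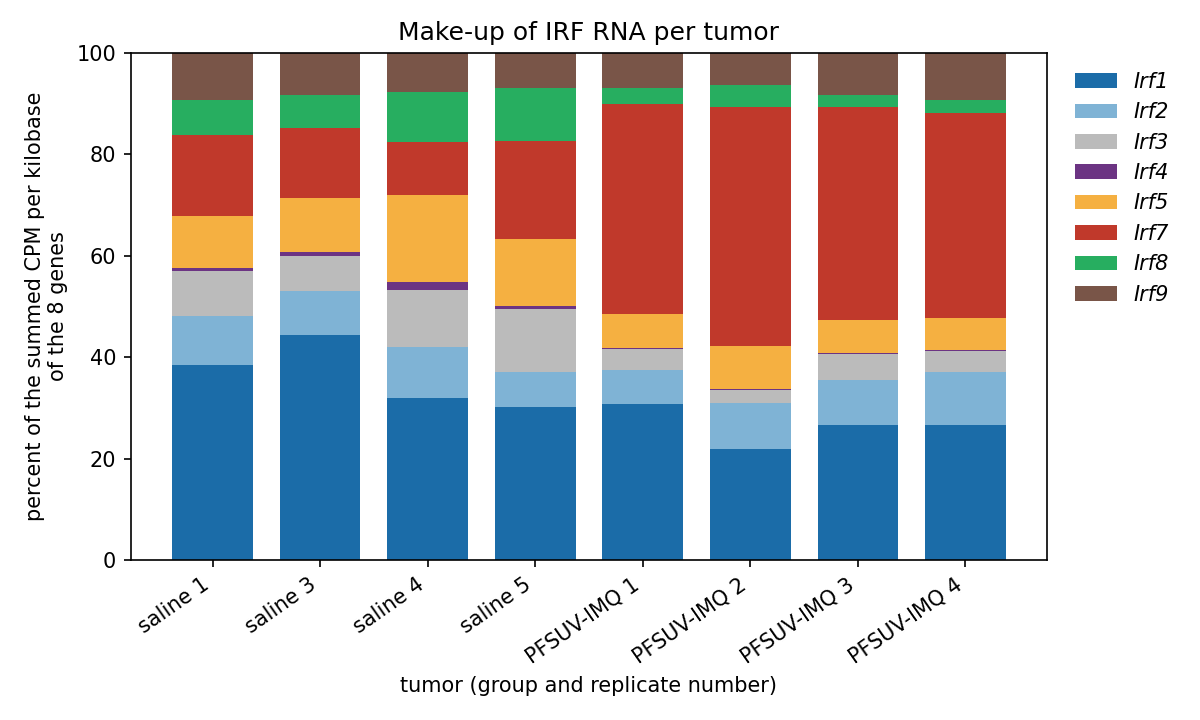
Percent of the summed CPM per kilobase of exon taken by each of the 8 genes in each tumor. *Irf7* takes 10.6% to 19.2% in saline tumors and 40.4% to 47.2% in PFSUV-IMQ tumors, and *Irf1* 30.2% to 44.4% and 21.9% to 30.7%.

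Upstream of IRF activation, 4 of 21 receptors, sensors, adaptors and kinases rose, none fell, and 17 were not called (median log2 fold change 0.57, against -0.03 for all tested genes, of which 2.26% rose). They were the RNA sensors *Ifih1* (log2 fold change 3.38, adjusted p = 0.00261) and *Ddx58* (2.59, adjusted p = 9.62e-04), the double-stranded RNA receptor *Tlr3* (2.79, adjusted p = 0.00522) and the adaptor *Myd88* (1.24, adjusted p = 0.0287). Without PFSUV-IMQ replicate 2, *Myd88* was at 0.91 (adjusted p = 0.00966), under the fold limit, and the other 3 stayed called. The groups were apart upward for 8 of the 21, which held for 6.0% of all tested genes. Among these 8, *Ikbke* (1.45, adjusted p = 0.0985), *Mb21d1* (1.03, adjusted p = 0.0695), *Tbk1* (0.98, adjusted p = 0.145) and *Slc15a4* (0.30, adjusted p = 0.433) were not called. These 4 were named after their values were seen. *Tlr7*, the receptor of IMQ, named after its values were seen, had a log2 fold change of 0.75 (adjusted p = 0.492) with overlapping groups. All 21 genes and all other genes listed from here on were read from the same fit, and the lists were written with earlier results of these tumors known.

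Among 8 genes of interferon receptors, JAK kinases and *Stat2*, *Stat2* was the only one that rose, none fell and 7 were not called (median log2 fold change 0.03). Next in size were *Jak2*, a kinase of the interferon-gamma receptor, at 0.93 (adjusted p = 0.262) and *Ifngr1*, a chain of that receptor, at -0.35 (adjusted p = 0.529). The *Jak2* level was 44.8 to 62.1 CPM in control tumors and 62.3 to 197 CPM in treated tumors, so that the groups were apart by a narrow gap.

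RNA of the interferons themselves was at or near the detection limit. Of 21 interferon genes, 1 passed the filter on low counts. Another 8, each an alpha gene, had 0 counts in all tumors, which allows up to 0.105 to 0.210 CPM per tumor at 3 counts. The alpha genes *Ifna2*, *Ifna4*, *Ifna5*, *Ifna9* and *Ifna13* each had 1 or 2 counts over all tumors together. The gene that passed was *Ifng*, with a log2 fold change of 0.62 (adjusted p = 0.629). *Ifnb1* and *Ifnl2*, named after their values were seen, are genes that IRF3 and IRF7 are known to drive. *Ifnb1* had 2, 4, 0 and 2 counts in control replicates 1, 3, 4 and 5 and 4, 7, 3 and 3 counts in PFSUV-IMQ replicates 1 to 4. *Ifnl2* had 0 counts in every control tumor and 3, 6, 1 and 0 in the treated tumors. These counts are too few for a fold change or a test.

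Among 14 DNA-binding partners and cofactors of IRF proteins, *Batf2*, a partner of IRF1, was the only call. It rose from 15.9 to 65.6 CPM (log2 fold change 2.05, adjusted p = 7.99e-04), and the AP-1 genes *Junb* (0.89, adjusted p = 0.157) and *Jun* (0.77, adjusted p = 0.514) came next without passing. The list median was 0.30. The other 13 genes were not called.

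Of 8 genes whose products restrain IRF proteins or the interferon receptor, 3 rose and 5 were not called (median 0.44, and 2.26% of all tested genes rose). *Usp18*, which blocks the type I interferon receptor, went from 12.5 to 20.2 CPM in controls to 260 to 895 CPM in treated tumors (log2 fold change 4.82, adjusted p = 5.94e-04). *Socs1*, an inhibitor of JAK kinases, rose by 2.74 on the log2 scale (adjusted p = 0.0137). Its level was 29.1, 102, 31.9 and 31.0 CPM in PFSUV-IMQ replicates 1 to 4, and without replicate 2 it rose by 2.06 (adjusted p = 0.00216). *Trim21*, a ubiquitin ligase that targets IRF proteins, rose by 2.53 (adjusted p = 4.99e-04).

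Of 10 genes known as IRF1 targets, 6 rose, none fell and 4 were not called (median 1.67, and 2.26% of all tested genes rose). The largest change was that of *Nos2*, inducible nitric oxide synthase (log2 fold change 4.03, adjusted p = 0.0389). Its level was 64.4, 388, 29.3 and 35.7 CPM in PFSUV-IMQ replicates 1 to 4, so replicate 2 carried most of the mean. Without that tumor its log2 fold change was 2.43 (adjusted p = 0.00441). Also called were the checkpoint ligand gene *Cd274* (2.57), the cytokine gene *Il15* (2.51), *Gbp2* (1.99), the class I transactivator *Nlrc5* (1.72) and the peptide transporter *Tap1* (1.63), with adjusted p from 0.00367 to 0.0107. The groups were apart upward for 8 of the 10, which held for 6.0% of all tested genes. Leaving out 1 tumor gave 4 to 6 genes called higher in this list, with 4 in the fit without control replicate 1. *Ciita*, the class II transactivator, named after its values were seen, was the one with all treated tumors below all controls (log2 fold change -0.85, adjusted p = 0.0722, not called). It was called lower in the fit without PFSUV-IMQ replicate 2 (-1.02, adjusted p = 0.0331). *Nlrc5* and *Ciita*, regulators of class I and class II genes in turn, thus had opposite signs, and this difference was not tested.

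Of 6 cytokine genes known as IRF5 or IRF8 targets, 4 passed the filter on low counts. *Il6* (log2 fold change 2.61, adjusted p = 0.0374) and *Il27* (2.44, adjusted p = 0.0286) rose from low levels, at means of 0.567 and 1.14 CPM in controls and 3.52 and 6.24 CPM in treated tumors. PFSUV-IMQ replicate 2 was highest for both, at 7.13 and 12.6 CPM. Without it the treated mean of *Il6* was 2.32 CPM (adjusted p = 0.0567, no longer called) and the log2 fold change of *Il27* was 1.83 (adjusted p = 0.0248). *Tnf* (1.13, and 0.24 without that tumor, adjusted p = 0.449 with all tumors) was not called. Neither was *Il12b* (0.03, and -0.62 without that tumor, adjusted p = 0.991 with all tumors). The calls in this list were fragile. The fits that left out 1 tumor called 0 to 2 of these genes, with 0 in 4 of the 8 fits (without control replicate 1, 3 or 5 or PFSUV-IMQ replicate 3).

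The genes with the most similar profile to each member were listed by Pearson's r of log2 CPM over the 8 tumors, as a description only. Because the treated and control tumors separate for *Irf1*, *Irf2*, *Irf7* and *Irf9*, r for these takes in the difference between groups as well as the spread within them. *Irf7* was closest to *Daxx*, *Usb1* and *Pou3f1* (r from 0.994 to 0.995), all 3 called higher. *Irf9* was closest to *Ifi44*, *Il15* and *Parp9* (0.996 to 0.9997), *Irf2* to *Mir155hg*, *Inpp1* and *Gbp9* (0.994 to 0.997), and *Irf1* to *Il18bp*, *Gbp2* and *Cd274* (0.973 to 0.980). For the members that were not called and overlapped between groups, none of the closest genes was called either. They were *Lrrc55*, *Pick1* and *Mmaa* for *Irf3*, *Pde1a*, *Aldh1b1* and *Lfng* for *Irf4*, *AI838599*, *Blnk* and *Chst15* for *Irf5*, and *Icosl*, *Adora2a* and *Slc16a6* for *Irf8*, with r from 0.960 to 0.986. Among the members themselves, r was 0.88 to 0.97 for every pair within *Irf1*, *Irf2*, *Irf7* and *Irf9*. It was 0.76 to 0.82 for every pair within *Irf4*, *Irf5* and *Irf8*, where PFSUV-IMQ replicate 2 is among the highest points. For *Irf3* it lay between -0.32 and 0.31 with every other member.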

How the data were processed

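The authors deposited raw read counts per gene for 8 tumors, and all tests ran on these. The other deposited table gives signal, the same counts scaled by the authors with DESeq2 size factors, and served to match symbols and for 1 added alternative. The labels list Trimmomatic 0.38, HISAT2 2.1.0 and featureCounts 2.0.0, whereas the study's methods name TopHat and HTSeq, so the aligner and counter are uncertain; the strand setting and genome build are not given in the sources used here. Libraries were made with the KAPA mRNA HyperPrep kit. Identifiers were matched to GENCODE M21 on GRCm38, whose coordinates are given.

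Tests used edgeR 4.0.16 in R 4.3.3 (TMM, default filter on low counts, quasi-likelihood test, Benjamini-Hochberg over 15998 genes). A call needed both an adjusted p below 0.05 and a difference of over 1 on the log2 scale. DESeq2 1.42.0 was an alternative. The 95% intervals come from the edgeR fit. Scripts were tested on simulated data. Each of the 4 ratios (prior count 0.5) had an exact two-sided permutation test over 70 groupings. Replicates are tumors of separate mice as the design describes. Both groups have replicates numbered 1, 3 and 4, which are different animals. All 8 members were named, with the called genes and the 3 largest changes of each list. The 3 most similar genes per member (mean of at least 1 CPM) and genes overlapping a member's exons were also named. Besides *Tnpo3* and *Rnf31*, the latter are *Gm17334* (3.4% of the exon bases of *Irf1*), *Bcl2l12* (2.56% of *Irf3*) and *Phrf1* (1.19% of *Irf7*). These 3 lie on the opposite strand. The members and lists were chosen with earlier results of these data known. Proteins were not used here, and 1 gene written for the receptor list is not reported here.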

Additional observations from a re-analysis of the deposited data

Results flagged for a closer look

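In each of 24 groups of 4 tumors (levels of the 8 members, and 4 ratios, in both groups), the highest and lowest tumors were compared with the rest by Dixon's test, which flags about 1 in 20 groups by chance. It marked 3 groups, and in each the tumor was PFSUV-IMQ replicate 2. Its *Irf7* level was 848 CPM, with the other 3 treated tumors at 387 to 425 CPM. Its *Irf5* level was 116 CPM, with the others at 46.2 to 51.9 CPM. Its *Irf8* level was 141 CPM, with the others at 45.6 to 61.4 CPM. The 3 marks share 1 library and are not independent of each other.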

How the results depend on the processing

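*Irf7* and *Irf9* stayed called in every fit run for them, with log2 fold changes of 2.58 to 3.06 and 1.10 to 1.36 when 1 tumor was left out. The members called higher numbered 2 or 3 in all fits. The replicate block fitted a term for each replicate number. Number 2 occurs only among PFSUV-IMQ tumors and number 5 only among controls. The group difference under the block therefore rests on replicates 1, 3 and 4 of both groups. Under this block *Irf2* had a log2 fold change of 0.94 (adjusted p = 0.0269), below the fold limit. Members called higher numbered 2, the IRF partners called higher 3 and the IRF1 targets called lower 1. *Irf3*, *Irf4* and *Irf8* were at 0.075, -0.40 and -0.40. Across all genes the block called 416 higher and 267 lower, against 362 and 32. The deviations of same-numbered tumors correlated at 0.29, -0.27 and -0.32, with no common sign. Whether tumors of the same number shared a step of handling was not tested. DESeq2's Wald test called 619 higher and 133 lower, and leaving out 1 tumor 197 to 375 and 8 to 38. Without the filter on low counts (491 higher and 63 lower), and with DESeq2's Wald test, the upstream list had 7 calls. Upper-quartile normalization moved the median of all genes to -0.10 and turned *Irf4* to -0.049 and *Irf8* to -0.063. With longest transcripts, the shares were 33.1% (*Irf1*, treated), 10.6% and 33.6% (*Irf7*, control and treated). Leaving out 1 tumor gave 1 to 2 partner calls, 0 to 1 IRF1 targets called lower and 0 to 2 IRF5 or IRF8 targets, and ranges of -0.13 to 0.061 for *Irf3*, -0.40 to 0.49 for *Irf4*, -0.51 to 0.21 for *Irf8* and -0.43 to 0.027 for the *Irf8* to *Irf4* ratio. The cause of these changes was not tested. Scaling by the authors' size factors, added after seeing the data, called the same number of members. The few counts of the interferon genes limit what can be said of them; *Irf4*, at 52 to 204 counts per tumor, varied between tumors with a CV of 53.1% to 59.0%.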
